A study of Mus musculus with 12 samples.

Results

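The 38 genes described here encode the stress sensors of the endoplasmic reticulum (ER), the chaperones and disulfide isomerases that fold proteins in it, and the machinery that removes misfolded proteins from it. They were taken by name, by a rule with no threshold on measured values, out of 38924 gene IDs counted in the libraries, and all 38 were found. All 38 were also among the 13811 genes that passed the filter on low counts. Expression was measured by RNA sequencing in 12 libraries of mouse T cells, 3 in each of 4 groups. WT C57BL/6 mice and STINGgt/gt mice on the same background, aged 8 to 12 weeks, gave naive CD4+ T cells from the spleen. STINGgt/gt (Goldenticket) mice carry a missense change in Tmem173, the gene for STING, and make no functional STING; the libraries are labelled STING KO. In all 4 groups the sorted cells were expanded for 2 days with anti-CD3 and anti-CD28 antibodies and rested for 1 day, so that every group had been activated through the T cell receptor beforehand. WT T cells and STINGgt/gt T cells were then exposed for 16 h either to DMSO, the solvent, or to 10-carboxymethyl-9-acridanone (CMA), a cell-permeable small molecule that activates mouse STING.

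Proteins bound for the cell surface or for secretion fold in the ER. When unfolded proteins build up there, 3 membrane sensors signal to the nucleus: PERK (gene Eif2ak3) slows translation, IRE1α (Ern1) cuts Xbp1 mRNA so that it encodes an active transcription factor, and ATF6 (Atf6) is cut in the Golgi by the site-1 and site-2 proteases and becomes one. The genes these factors switch on encode chaperones, isomerases and the components of ER-associated degradation, by which misfolded proteins are drawn out of the ER and destroyed. STING is itself an ER membrane protein that leaves for the Golgi when it is activated. Counts per gene do not separate the cut form of Xbp1 mRNA from the uncut form, so the activity of IRE1α was not measured here.

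Each library had from 27414450 to 43784910 reads on genes. Levels are given as CPM, counts scaled to a common library size with TMM factors, which adjust for differences in composition. The 3 WT libraries with DMSO differed more among themselves than the libraries of the other groups did. Their chi-square per degree of freedom over genes was 9.98 to 29.9, and in the 9 pairs of the other groups it was 2.63 to 6.82. It was 10.1 for WT DMSO libraries 1 and 2, 9.98 for 1 and 3 and 29.9 for 2 and 3. Reads on no annotated feature made up 4.86% to 5.47% of entries in WT with DMSO, 6.79% to 7.16% in WT with CMA and 5.98% to 6.54% in STINGgt/gt T cells, so that this share differed without overlap between the WT treatments and between the genotypes with DMSO, as the levels of many genes did. Its part in the results was not tested. WT DMSO library 3 held the highest of the 3 values for 21 of the 38 genes. The counts over the 38 genes are given with and without WT DMSO library 2 or 3. The libraries are numbered 1 to 3 in each group and are named in that order throughout. The labels do not say which animals the libraries came from, so p-values measure the spread between these libraries. T-cell markers were high in every library but not level across the groups. Cd3e was at 244 to 267 CPM in WT with DMSO, 153 to 168 CPM in WT with CMA and 269 to 282 CPM in STINGgt/gt T cells, and Cd4 was at 434 to 437, 483 to 514 and 521 to 548 CPM. With CMA in WT T cells 4 of the 6 CD4 T-cell markers were lower and 1, Cd4, was higher. Tmem173 mRNA was at 168 to 184 CPM in STINGgt/gt T cells, 183 to 190 CPM in WT with DMSO and 296 to 316 CPM in WT with CMA. Since a missense change can leave mRNA levels as they are, these values do not check the genotype labels.

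The promoters of these genes were read for the sequences through which the sensors are known to act, since the choice of genes did not use them. The RefSeq promoter table (GRCm38.p6; 250 bases before to 50 after each start site) held an entry for 33 of the 38 genes, and Atf6, Manf, Derl1, Hyou1 and Sec61a1 were without one. The ER stress element (ERSE), which ATF6 and XBP1 bind together with the factor NF-Y, was searched on both strands as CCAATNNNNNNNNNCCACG. It was present in 9 of the 33 genes (27.3%), namely Calr, Canx, Creld2, Derl3, Dnajc3, Hsp90b1, Hspa5, Pdia6 and Syvn1. Over all genes of the table it was present in 37 of 27025 (0.137%). ERSE was first defined in promoters of ER chaperone genes, several of them in this list, so its frequency here is a description and not independent evidence. Hsp90b1 held 2 sites and the other genes 1 each. The 10 sites are shown as matches to the element through which the sensors are known to act, and binding at them was not measured. They are written 5′ to 3′ on the strand that carries the motif, with the fixed letters in capitals and the spacer in lower case, and they run against the direction of the gene in Calr, Creld2, Derl3 and the second site of Hsp90b1.
Calr, chr8:84847075-84847093: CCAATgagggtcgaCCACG
Canx, chr11:50325800-50325818: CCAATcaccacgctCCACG
Creld2, chr15:88819520-88819538: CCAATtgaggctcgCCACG
Derl3, chr10:75893242-75893260: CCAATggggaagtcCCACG
Dnajc3, chr14:118937827-118937845: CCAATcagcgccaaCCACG
Hsp90b1, chr10:86705638-86705656: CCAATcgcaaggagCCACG
Hsp90b1, chr10:86705533-86705551: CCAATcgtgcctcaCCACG
Hspa5, chr2:34772025-34772043: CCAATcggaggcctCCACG
Pdia6, chr12:17266491-17266509: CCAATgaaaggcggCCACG
Syvn1, chr19:6046532-6046550: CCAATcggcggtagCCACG

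The 9-base spacer took 10 different forms at these 10 sites. The middles of the sites lay between -202.5 and -34.5 bases from the start site. A second element, ERSE-II (ATTGG and CCACG with a single base between them), was present in Dnajb11 and Herpud1 (2 of 33, 6.06%; 0.0444% of all genes). The UPR element (UPRE, TGACGTGG) was present in Txndc5, Txndc11 and Ube2j1 (3 of 33, 9.09%; 0.714% of all genes). The half-site CCACG, which is part of ERSE and ERSE-II and, read on the other strand, of UPRE, was present in 27 of 33 genes (81.8%) and in 35.5% of all genes. The CCAAT box, which is also part of ERSE and of ERSE-II on the other strand, was present in 23 of 33 (69.7%) and in 41.1% of all genes. The core of the interferon-stimulated response element (GAAA, 2 bases of any kind, GAAA) was present in 1 of 33 (3.03%), Txndc5, and in 3.99% of all genes. A match is not evidence of binding, and a missing match says only that these letters are not in this window. The 250 bases before the start site are shown for Hspa5, the best known target of the response, for Derl3, Syvn1 and Pdia6, whose levels moved in different directions with CMA, and for Herpud1, which carries ERSE-II. Capitals mark ERSE or, in Herpud1, ERSE-II, and in Derl3 the capitals read the reverse complement of the motif.
Hspa5, chr2:34771840-34772089, plus strand: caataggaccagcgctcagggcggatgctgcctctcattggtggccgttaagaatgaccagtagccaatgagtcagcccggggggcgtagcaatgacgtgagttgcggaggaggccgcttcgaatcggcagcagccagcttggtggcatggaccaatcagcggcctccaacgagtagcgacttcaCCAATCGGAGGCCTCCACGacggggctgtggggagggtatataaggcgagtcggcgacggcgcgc
Derl3, chr10:75893148-75893397, plus strand: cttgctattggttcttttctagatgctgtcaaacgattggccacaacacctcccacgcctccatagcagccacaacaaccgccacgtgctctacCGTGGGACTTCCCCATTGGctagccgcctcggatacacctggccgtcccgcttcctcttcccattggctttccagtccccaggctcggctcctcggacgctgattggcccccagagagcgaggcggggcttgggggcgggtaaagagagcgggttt
Syvn1, chr19:6046326-6046575, plus strand: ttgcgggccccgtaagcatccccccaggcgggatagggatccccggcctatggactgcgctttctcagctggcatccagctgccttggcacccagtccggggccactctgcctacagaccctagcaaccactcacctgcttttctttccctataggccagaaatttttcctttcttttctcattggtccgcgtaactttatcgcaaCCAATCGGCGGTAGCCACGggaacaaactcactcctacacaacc
Pdia6, chr12:17266339-17266588, plus strand: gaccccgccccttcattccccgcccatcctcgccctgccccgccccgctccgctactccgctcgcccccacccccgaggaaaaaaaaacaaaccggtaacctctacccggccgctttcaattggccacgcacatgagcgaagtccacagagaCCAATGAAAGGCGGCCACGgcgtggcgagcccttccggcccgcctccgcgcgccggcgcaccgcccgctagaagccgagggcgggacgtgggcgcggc
Herpud1, chr8:94386179-94386428, plus strand: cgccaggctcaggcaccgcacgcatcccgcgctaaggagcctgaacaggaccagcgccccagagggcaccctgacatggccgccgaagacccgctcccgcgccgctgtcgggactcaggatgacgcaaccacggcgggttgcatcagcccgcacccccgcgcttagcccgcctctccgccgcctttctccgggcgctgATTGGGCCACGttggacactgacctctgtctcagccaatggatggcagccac

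To compare levels between genes, CPM was divided by the length of annotated exon. In WT T cells with DMSO the top of the order was held by the abundant folding proteins of the ER lumen. P4hb, the archetypal protein disulfide isomerase, led with 359 CPM per kb, above Hsp90b1 (the ER HSP90, 279), Calr (calreticulin, 264), Hspa5 (BiP, the ER HSP70, 201), Pdia3 (an isomerase that works with calreticulin, 186) and Canx (calnexin, 153). Hsp90b1 and Calr overlapped between libraries, as did Hspa5 and Pdia3, and the other neighbours in this group of 6 did not. Xbp1 stood in 9th place with 74.4 CPM per kb and overlapped with Pdia4 above it and Sdf2l1 below it. The 3 sensors were near the bottom: Eif2ak3 with 9.62 and Atf6 with 9.25 CPM per kb overlapped, and Ern1 with 1.89 was next to last. Derl3, a derlin known from secretory cells, came last with 0.931 CPM per kb, on 45 to 73 reads per library. The plot of levels per kb gives the order in all 4 groups.

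**Figure D1:**
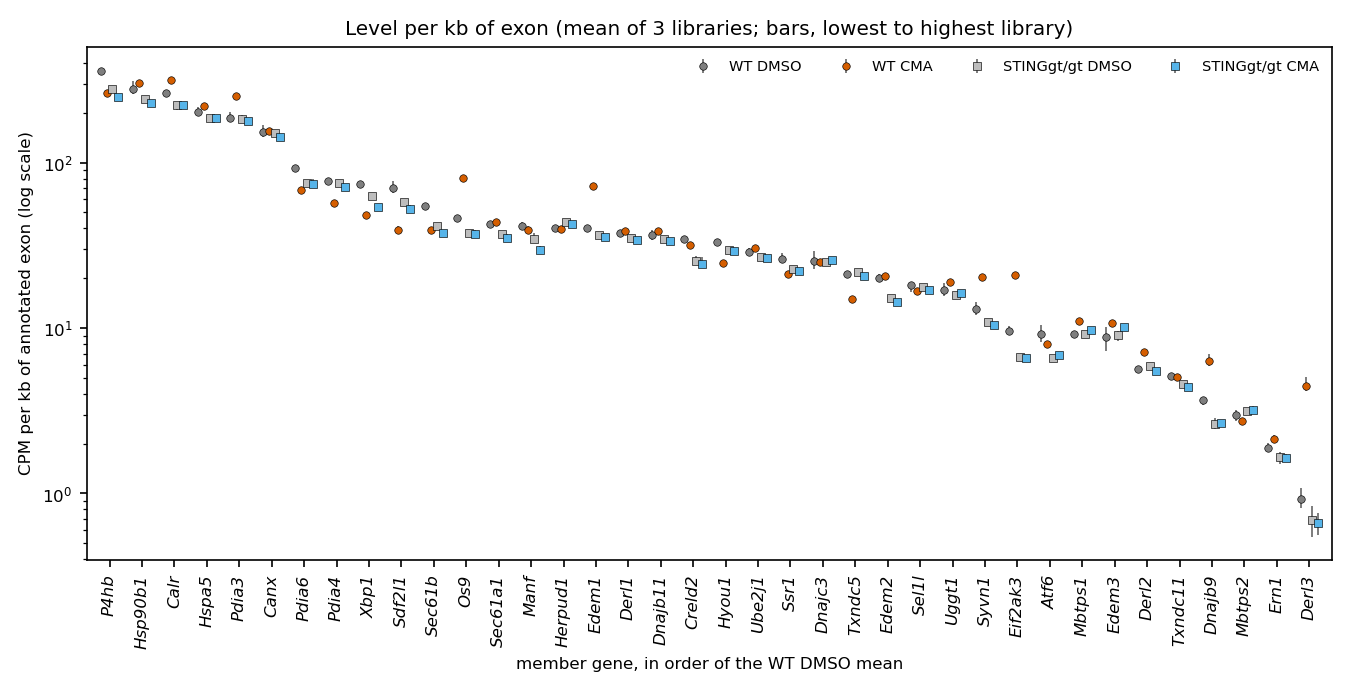
CPM per kb of annotated exon (log scale) for the 38 genes in the 4 groups, as the mean of 3 libraries with bars from the lowest to the highest library, in the order of the WT DMSO mean. P4hb leads with 359 in WT with DMSO and Derl3 is last with 0.931; the orange points of WT with CMA leave the others most clearly at Derl3, Eif2ak3, Edem1, Os9 and Dnajb9 (above) and at Sdf2l1 and Xbp1 (below).

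The first comparison asked how the genes responded to CMA where STING is functional. In WT T cells CMA moved them in both directions. Degradation genes rose (Derl3, Edem1, Os9, Syvn1), the sensor gene Eif2ak3 rose 2.18-fold, and Xbp1, Sdf2l1, most disulfide isomerases and Sec61b fell. By the quasi-likelihood test of edgeR, with p-values adjusted over all genes tested by Benjamini and Hochberg's method, 13 genes were higher, 10 were lower and 15 did not pass an adjusted p of 0.05. CMA altered a large share of all genes in WT T cells: 33% of the 13811 genes tested were higher, 37.4% were lower and 70.4% were called in either direction. Of the 38 genes, 60.5% were called, a share below that of all genes. Their median log2 fold change was 0.05, beside -0.04 for all genes. Only Eif2ak3 and Derl3 changed by at least 2-fold, that is 5.26% of the 38 beside 17% of all genes. The 2 groups of 3 libraries did not overlap for 24 of the 38 genes, and for 71.1% of all genes. Without WT DMSO library 3 the counts were 18 higher and 9 lower, and without WT DMSO library 2 they were 11 and 12.

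**Figure D2:**
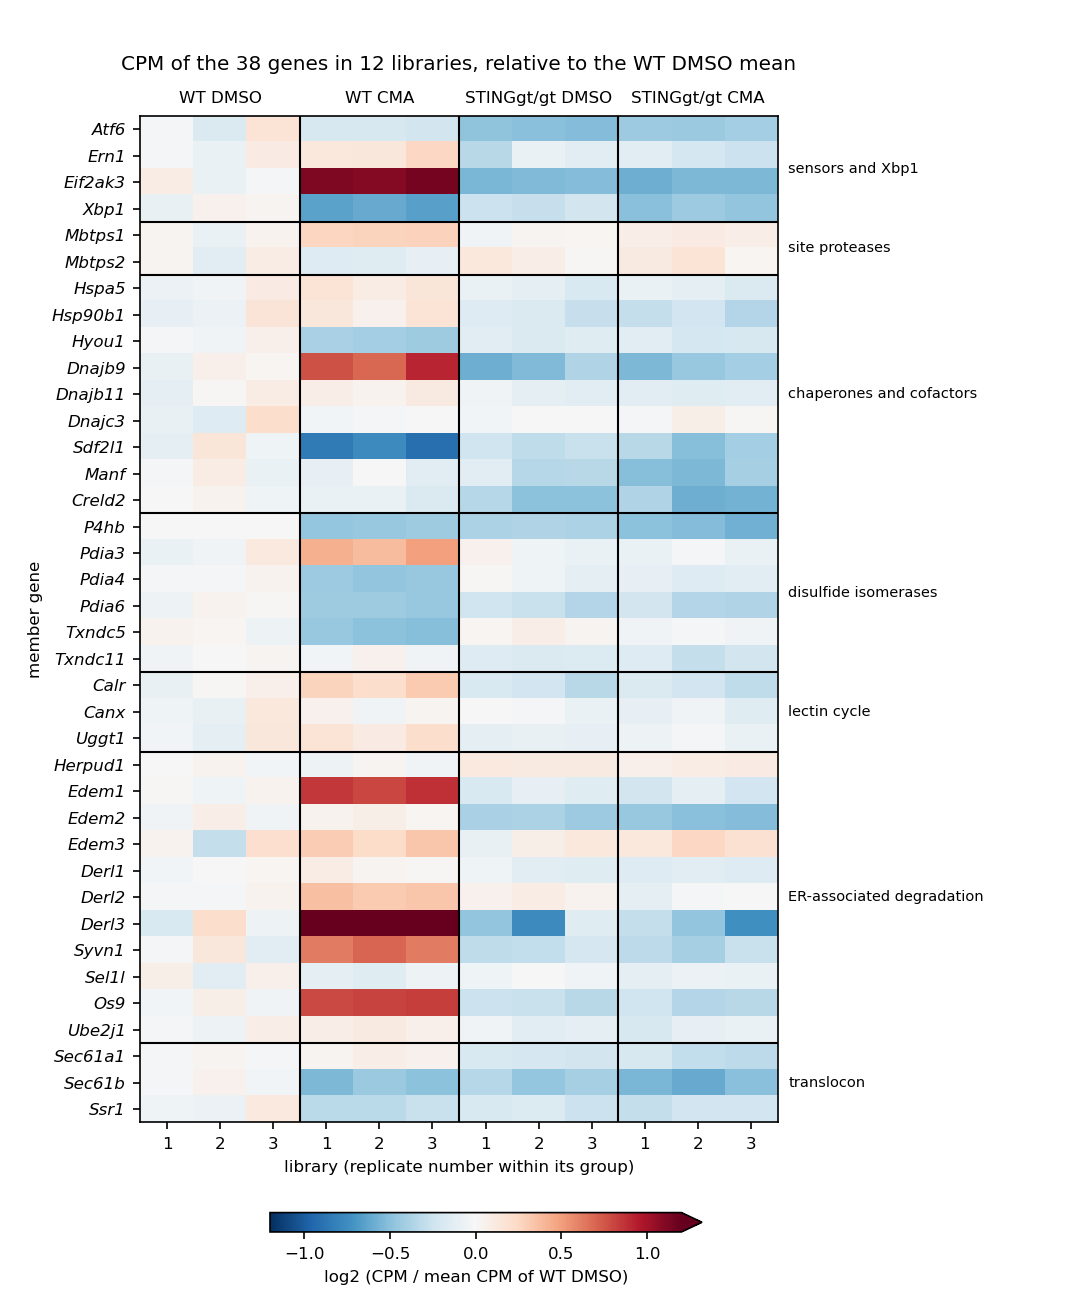
Level of each of the 38 genes (rows, grouped by role) in each of the 12 libraries (columns), as log2 of CPM over the mean CPM of the 3 WT DMSO libraries; red is higher, blue is lower, and the scale stops at 1.2. In WT with CMA the ER-associated degradation rows Edem1, Derl3, Syvn1 and Os9 are red in all 3 libraries and the rows of Xbp1, Sdf2l1 and 4 of the 6 disulfide isomerases are blue, while the 2 STINGgt/gt blocks look alike.

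Of the sensors, Eif2ak3 (PERK, ENSMUSG00000031668, chr6:70844515-70905245) rose. Its CPM in WT T cells was 61.7, 54.7 and 57.4 with DMSO and 126, 124 and 129 with CMA. The STINGgt/gt libraries had 39.6, 40.0 and 40.3 CPM with DMSO, against 38.6, 40.0 and 40.0 with CMA. The 3 WT libraries with CMA stood above all 9 others, and the log2 fold change in WT was 1.12 ± 0.05 (SE; edgeR adjusted p = 1.5e-12). Atf6 (ENSMUSG00000026663, chr1:170704674-170867771) went the other way. Its CPM was 84.7, 75.8 and 95.6 with DMSO and 74.6, 74.9 and 73.5 after CMA in WT T cells. The spread of the DMSO libraries was wide, and the lowest of them was only just above the CMA libraries. The log2 fold change of -0.20 ± 0.06 passed (edgeR adjusted p = 0.00765) but became -0.10 (edgeR adjusted p = 0.0744) without WT DMSO library 3. Its call was also lost when only the groups compared were fitted. STINGgt/gt T cells had 61.2, 60.5 and 59.6 CPM with DMSO and 63.1, 62.7 and 64.4 with CMA, all below the WT libraries. Ern1 (IRE1α, ENSMUSG00000020715, chr11:106394650-106487852) was at 15.3, 14.6 and 16.5 CPM with DMSO and 16.9, 17.0 and 18.3 after CMA in WT T cells. These groups did not overlap, and the log2 fold change of 0.17 ± 0.07 missed the threshold narrowly (edgeR adjusted p = 0.052) and passed in 9 of 19 alternatives, among them without WT DMSO library 3 (0.23) and without STINGgt/gt DMSO library 1 or STINGgt/gt CMA library 1 or 3. For Ern1 STINGgt/gt T cells had 12.3, 14.6 and 14.04 CPM with DMSO and 14.1, 13.4 and 12.97 with CMA.

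Xbp1 (ENSMUSG00000020484, chr11:5520659-5525893), the transcription factor gene downstream of IRE1α and ATF6, fell. Its CPM in WT T cells was 227, 251 and 247 with DMSO and 155, 158 and 154 with CMA. For STINGgt/gt T cells it was 202, 200 and 208 with DMSO and 171, 178 and 174 with CMA. CMA libraries were below DMSO libraries in both genotypes without overlap. The log2 fold change in WT T cells was -0.63 ± 0.04 (edgeR adjusted p = 1.72e-09), that is 1.55-fold lower. Of the proteases that cut ATF6, the site-1 protease gene Mbtps1 rose by a log2 value of 0.27 ± 0.04 (edgeR adjusted p = 3.09e-05), and the site-2 protease gene Mbtps2 had a log2 fold change of -0.14 (edgeR adjusted p = 0.0597; -0.21 and lower without WT DMSO library 2). Mbtps2 was also called lower with library-size or upper-quartile scaling and with the replicate number as a block.

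Among the 9 genes of HSP70 and HSP90 chaperones and their cofactors, 2 rose and 2 fell (22.2% each, beside 33% and 37.4% of all genes). This count rests on single libraries: 5 rose without WT DMSO library 3 (Hspa5, Dnajb9, Hsp90b1, Dnajb11 and Dnajc3), and 1 rose without WT DMSO library 1 or 2 or WT CMA library 1 or 3. Hspa5 (BiP, ENSMUSG00000026864, chr2:34771970-34776531), which binds unfolded chains and holds the sensors inactive, barely moved. Its CPM in WT T cells was 813, 829 and 912 with DMSO and 951, 907 and 942 with CMA. For the STINGgt/gt libraries it was 807, 791 and 748 with DMSO and 808, 786 and 753 with CMA. WT DMSO library 3 overlapped with the CMA libraries. The log2 fold change of 0.13 ± 0.05 passed (edgeR adjusted p = 0.0247) but did not without WT CMA library 1 or 3 or WT DMSO library 1 or 2, with an adjusted p of up to 0.0896. Dnajb9 (ERdj4, ENSMUSG00000014905, chr12:44205897-44210068), a cochaperone that returns BiP to IRE1α, rose by a log2 value of 0.79 ± 0.08 (edgeR adjusted p = 1.8e-07). Its CPM was 8.78, 9.76 and 9.48 with DMSO and 15.8, 15.1 and 17.6 after CMA in WT T cells. The corresponding values in STINGgt/gt T cells were 6.24, 6.49 and 7.25 (DMSO) against 6.42, 6.83 and 7.04 (CMA), and WT with CMA was above all other libraries. Sdf2l1 (ENSMUSG00000022769, chr16:17130138-17132383), which forms a complex with the cochaperone ERdj3 (Dnajb11), had the lowest log2 fold change of the 38 genes. Its CPM was 72.2, 86.1 and 74.75 with DMSO and 43.1, 45.8 and 41.4 after CMA in WT T cells. STINGgt/gt T cells held Sdf2l1 at 65.7, 62.7 and 64.5 CPM with DMSO and 61.6, 54.6 and 58.5 with CMA. The log2 fold change in WT T cells was -0.84 ± 0.07 (edgeR adjusted p = 6.4e-09). Hyou1 (GRP170), a nucleotide exchange factor of BiP, fell by 0.41 on the log2 scale (edgeR adjusted p = 1.61e-07). Hsp90b1, Dnajb11, Dnajc3, Manf and Creld2 had log2 fold changes from -0.11 (Creld2) to 0.12 (Hsp90b1) and did not pass. Hsp90b1 passed in 5 of 19 alternatives, with 0.21 (edgeR adjusted p = 0.000661) without WT DMSO library 3, and Dnajb11 in 2, with 0.13 (edgeR adjusted p = 0.0153) without that library. Dnajc3 (p58IPK) was at 122, 117 and 150 CPM with DMSO and 127, 128 and 131 with CMA in WT T cells, and its log2 fold change turned from -0.02 to 0.11 (edgeR adjusted p = 0.0268) without WT DMSO library 3, the highest of the 12 libraries.

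Of the 6 disulfide isomerases, which form and rearrange the bonds between cysteines of folding proteins, 4 fell (66.7%, beside 37.4% of all genes) and 1 rose (16.7%, beside 33%). Pdia4 (ERp72, ENSMUSG00000025823, chr6:47796142-47813512) was at 184, 183 and 192 CPM with DMSO and 137, 134 and 136 after CMA in WT T cells. The STINGgt/gt libraries had 189, 180 and 173 CPM with DMSO and 174, 167 and 170 with CMA. Txndc5 (ERp46, ENSMUSG00000038991, chr13:38500273-38528824) was at 97.2, 96.4 and 90.5 CPM with DMSO and 68.9, 67.5 and 66.5 after CMA in WT T cells. Neither gene overlapped between treatments in WT T cells, with log2 fold changes of -0.46 ± 0.04 for Pdia4 (edgeR adjusted p = 5.9e-08) and -0.48 ± 0.04 for Txndc5 (edgeR adjusted p = 2.04e-08). Txndc5 in STINGgt/gt T cells was at 96.5, 99.9 and 97.2 CPM with DMSO and 92.1, 93.0 and 92.2 with CMA. P4hb fell by 0.45 and Pdia6 (P5) by 0.43 on the log2 scale. Pdia3 (ERp57), the isomerase that works on glycoproteins bound by calnexin and calreticulin, rose by 0.43 ± 0.05 (edgeR adjusted p = 1.9e-06). Txndc11 did not pass (log2 fold change -0.01). Summed over the 6 genes, CPM was 2230 to 2330 in WT with DMSO and 2014 to 2082 with CMA.

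Of the lectin cycle, which holds sugar-bearing proteins in the ER until they are folded, Calr rose by a log2 value of 0.27 ± 0.05 (edgeR adjusted p = 0.000241). Uggt1, which puts back the sugar that marks an unfolded protein, had a log2 fold change of 0.16 ± 0.06 (edgeR adjusted p = 0.0181), and this call was lost without WT CMA library 1 or 3 or WT DMSO library 1 or 2, with an adjusted p of up to 0.0965. Canx, which encodes the membrane-bound partner of calreticulin, had a log2 fold change of 0.01 and did not pass.

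Of the genes of ER-associated degradation, 6 of 11 (54.5%, beside 33% of all genes) were higher with CMA in WT T cells and the other 5 did not pass. Derl3 (ENSMUSG00000009092, chr10:75893398-75895941) changed most of the 38 genes. Its CPM in WT T cells was 1.64, 2.15 and 1.78 with DMSO and 8.37, 8.30 and 10.1 with CMA, on 269 to 322 reads per library with CMA. The 6 STINGgt/gt libraries had 1.34, 1.09 and 1.68 with DMSO and 1.52, 1.33 and 1.12 with CMA. The 3 WT libraries with CMA were far above the other 9, with a log2 fold change of 2.27 ± 0.14 (4.81-fold; edgeR adjusted p = 4.94e-10). Edem1 (ENSMUSG00000030104, chr6:108828641-108859356), a lectin that marks glycoproteins for degradation, was at 262, 249.97 and 267 CPM with DMSO and 468, 453 and 476 after CMA in WT T cells. Edem1 in STINGgt/gt T cells was at 229, 242 and 234 CPM with DMSO and 223, 239 and 222 with CMA. Os9 (ENSMUSG00000040462, chr10:127094259-127121160), the lectin that hands such proteins to the ubiquitin ligase, was at 118, 127 and 117 CPM with DMSO and 209.5, 212 and 215 after CMA in WT T cells. Its STINGgt/gt levels were 101, 100.2 and 96.1 CPM with DMSO against 102, 94.4 and 95.8 with CMA, and both genes were higher in WT with CMA than in all 9 other libraries. The log2 fold changes in WT T cells were 0.84 ± 0.04 for Edem1 (edgeR adjusted p = 4.28e-11) and 0.81 ± 0.05 for Os9 (edgeR adjusted p = 1.06e-10). Syvn1 (HRD1), the ubiquitin ligase itself, rose by a log2 value of 0.65 ± 0.06 (edgeR adjusted p = 5.61e-08), Derl2 by 0.34 ± 0.04 and Edem3 by 0.28 ± 0.09 (edgeR adjusted p = 0.0105). Sel1l, the partner of HRD1 in the same complex, had a log2 fold change of -0.11 and did not pass (edgeR adjusted p = 0.0677; -0.18 and lower without WT DMSO library 2). Sel1l was also called lower with library-size or upper-quartile scaling and with the replicate number as a block. Herpud1, Edem2, Derl1 and Ube2j1, which encodes the ubiquitin-conjugating enzyme of the complex, had log2 fold changes between -0.02 and 0.08 and did not pass either. Summed over the 11 genes, CPM was 1074 to 1112 in WT with DMSO and 1444 to 1471 with CMA.

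Of the 3 genes of the channel through which new proteins enter the ER, Sec61b and Ssr1 fell (66.7%, beside 37.4% of all genes). Sec61b (ENSMUSG00000053317, chr4:47474658-47483242), the small β subunit of the channel, was at 68.97, 71.9 and 67.9 CPM with DMSO and 47.9, 51.2 and 49.4 after CMA in WT T cells. In STINGgt/gt T cells it was at 54.8, 50.5 and 52.9 CPM with DMSO and 47.7, 45.8 and 49.1 with CMA. WT with DMSO was above the other 9 libraries, and the log2 fold change in WT T cells was -0.49 ± 0.05 (edgeR adjusted p = 9.74e-08). Ssr1, of the associated TRAP complex, fell by 0.30 on the log2 scale (edgeR adjusted p = 4.44e-05), whereas Sec61a1, the pore subunit, had a log2 fold change of 0.06 and did not pass.

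**Figure D3:**
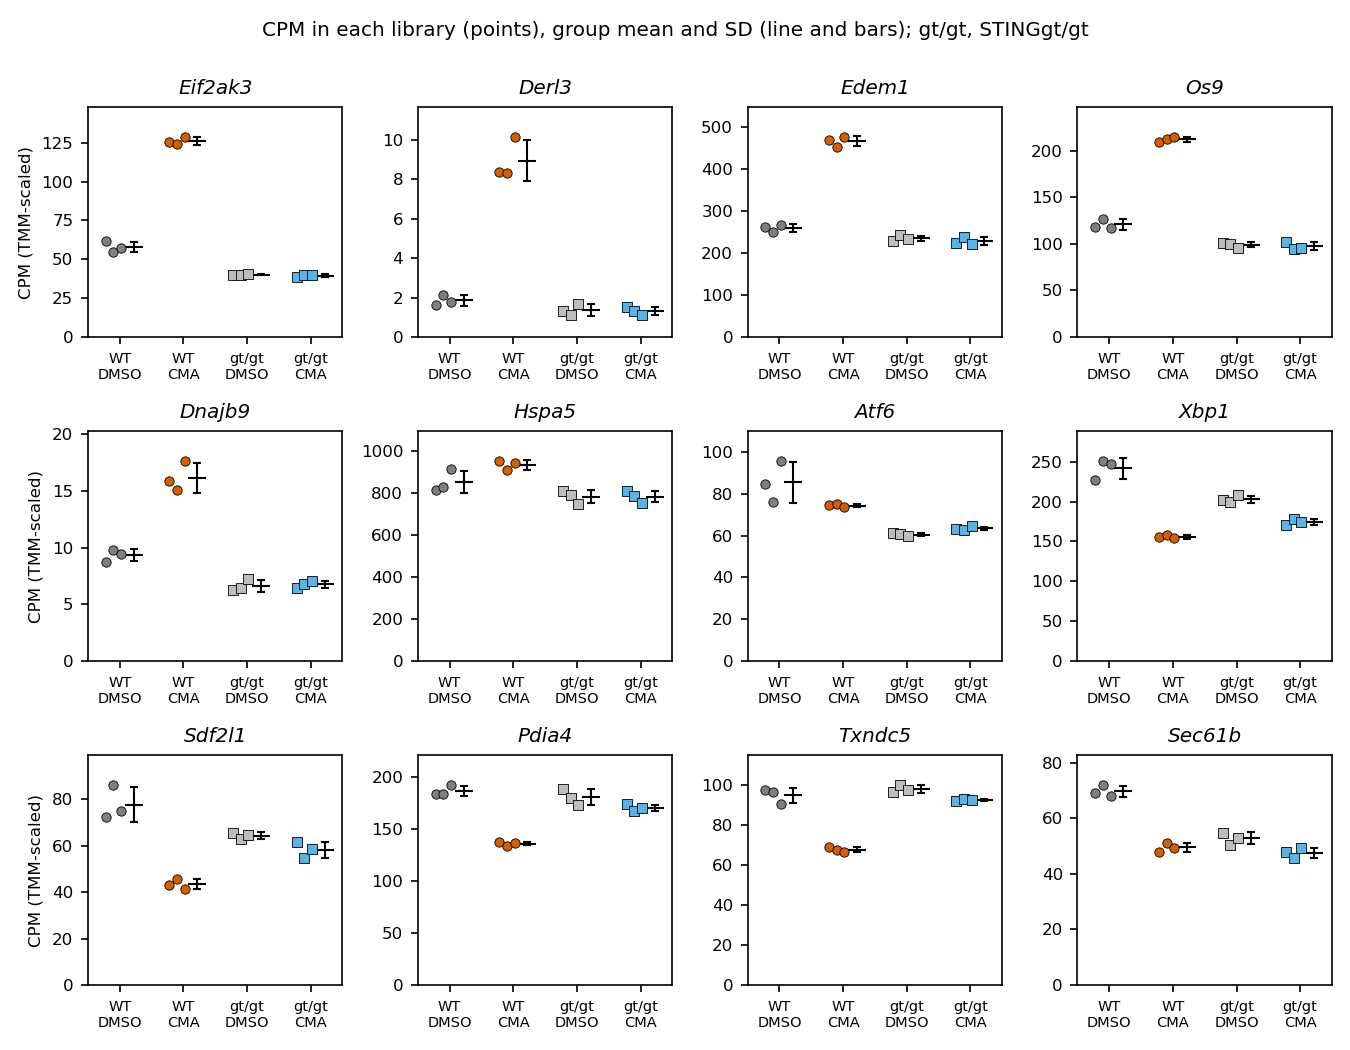
CPM (TMM-scaled) of 12 of the genes in each library, with the group mean and SD of 3 libraries beside the points; every axis starts at 0. In WT with CMA Derl3 reaches 8.30 to 10.1 CPM and Eif2ak3 124 to 129 CPM, above all other libraries, while Xbp1, Sdf2l1, Pdia4 and Txndc5 are below WT with DMSO.

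Genes with an ERSE in the promoters shown above did not move one way. Of the 9, Derl3, Syvn1, Calr and Hspa5 were higher with CMA in WT T cells, Pdia6 was lower and 4 did not pass, beside 33% of all genes higher and 37.4% lower. Without WT DMSO library 3, 6 were higher, with Hsp90b1 and Dnajc3 among them, and without WT DMSO library 2 the call of Hspa5 was lost. The median log2 fold change of the 9 genes was 0.12. Of the 24 genes with a promoter entry and no ERSE, 9 were higher, 7 were lower and 8 did not pass, with a median of 0.06. Of these 24, 12 were higher without WT DMSO library 3. Without WT DMSO library 2 the call of Uggt1 was lost, and Mbtps2 and Sel1l were called lower. Derl3 (2.27) and Pdia6 (-0.43), both with 1 complete ERSE, stood at opposite ends. Herpud1 and Dnajb11, which hold ERSE-II, had log2 fold changes of -0.02 and 0.08 and did not pass. The 3 genes with a UPRE had log2 fold changes of -0.48 (Txndc5, lower), -0.01 (Txndc11) and 0.08 (Ube2j1).

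**Figure D4:**
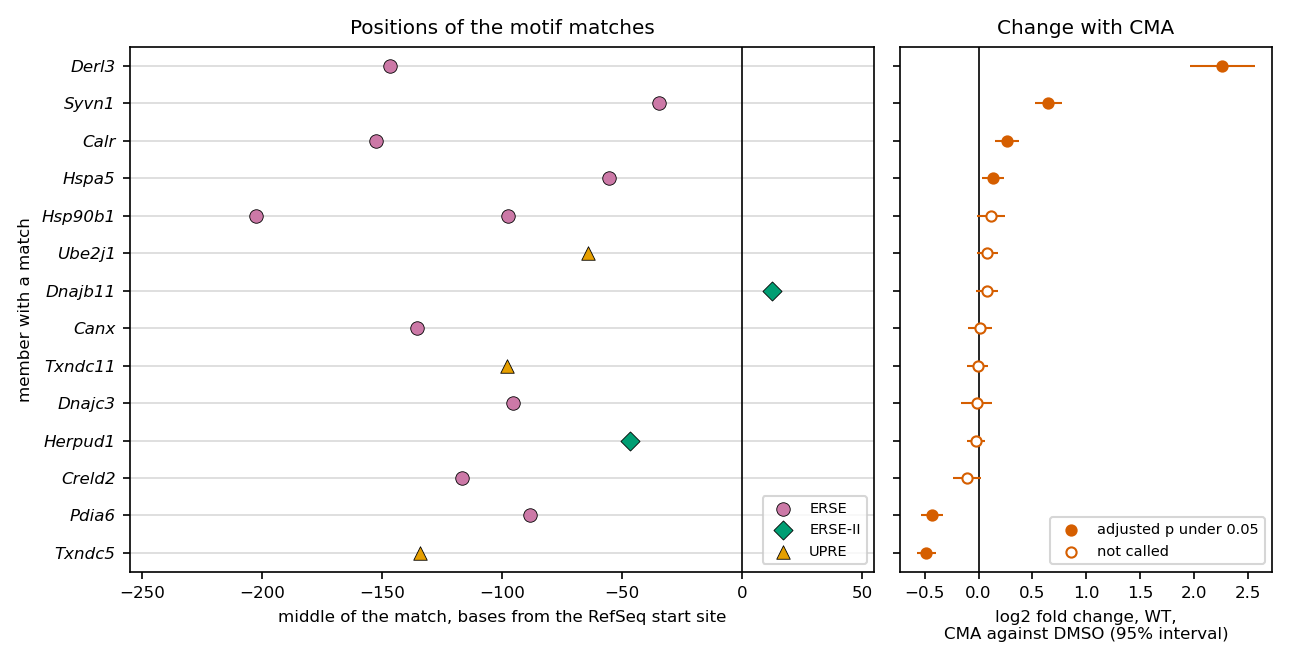
Left, the position of each ERSE, ERSE-II and UPRE match in the promoters of the genes, as bases from the RefSeq start site; right, the log2 fold change of the same gene in WT T cells, CMA against DMSO, with its 95% interval. Genes with an ERSE run from 2.27 for Derl3 to -0.43 for Pdia6.

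The second comparison asked what CMA did without functional STING. In STINGgt/gt T cells only Xbp1 passed edgeR's test. It was lower by 0.22 ± 0.04 on the log2 scale (1.16-fold; adjusted p = 0.0213), and the other 37 genes did not pass. Of all genes tested, 0.92% were lower and 0.398% higher, 1.32% in all. With each of the 6 STINGgt/gt libraries left out in turn the call was lost, with an adjusted p of up to 0.0941, while the value stayed between -0.24 and -0.20 in all alternatives. At an unadjusted p under 0.05 there were 6 of the 38 genes (15.8%), beside 13% of all genes. Manf, a secreted stress factor, was at 133, 115 and 115 CPM with DMSO and 102, 99.7 and 110.0 with CMA (log2 fold change -0.22, edgeR adjusted p = 0.116). P4hb was at 787, 800 and 786 CPM with DMSO and 732, 716 and 690 with CMA (log2 fold change -0.15, edgeR adjusted p = 0.0556). The treatments did not overlap for either gene. DESeq2 called 3 genes lower, and neither DESeq2 nor limma called a gene higher. The 38 log2 fold changes ran from -0.22 to 0.15, with a median of -0.04 beside 0.0013 for all genes. The 2 groups did not overlap for 14 of the 38 genes and for 23.1% of all genes.

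Whether the response differed between the genotypes was tested with the interaction of genotype and CMA in the same model, which uses the WT DMSO libraries again. The effect of CMA was higher in WT than in STINGgt/gt T cells for 10 genes and lower for 10 (27.2% and 31.6% of all genes, and 58.8% in either direction). Derl3 differed most, by a log2 value of 2.31 with a 95% interval of 1.79 to 2.83, followed by Eif2ak3 with 1.14 (1.00 to 1.28), Edem1 with 0.89 and Os9 with 0.84. In the other direction Sdf2l1 differed by -0.70 (-0.89 to -0.50; edgeR adjusted p = 6.14e-06). Xbp1, which was lower with CMA in both genotypes, differed by -0.42 (-0.55 to -0.28; edgeR adjusted p = 2.71e-05), so that its fall was larger in WT T cells. The log2 fold change of Syvn1 was 0.65 in WT and -0.06 in STINGgt/gt T cells, that of Pdia3 was 0.43 and -0.03, and that of Txndc5 was -0.48 and -0.08. Hspa5, Uggt1 and Edem3 did not pass the interaction (edgeR adjusted p = 0.116, 0.24 and 0.403), but each passed without WT DMSO library 3, with differences of 0.20, 0.20 and 0.26 (edgeR adjusted p = 0.00817, 0.00795 and 0.035). Edem3 had log2 fold changes of 0.28 in WT and 0.15 in STINGgt/gt T cells. Hsp90b1 missed the threshold of the interaction narrowly, with a difference of 0.21 (edgeR adjusted p = 0.0525). It passed in 9 of 18 alternatives, among them DESeq2, limma and the fit without WT DMSO library 3. Without WT DMSO library 3 the counts were 18 higher and 10 lower, and without WT DMSO library 2 they were 11 and 11.

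**Figure D5:**
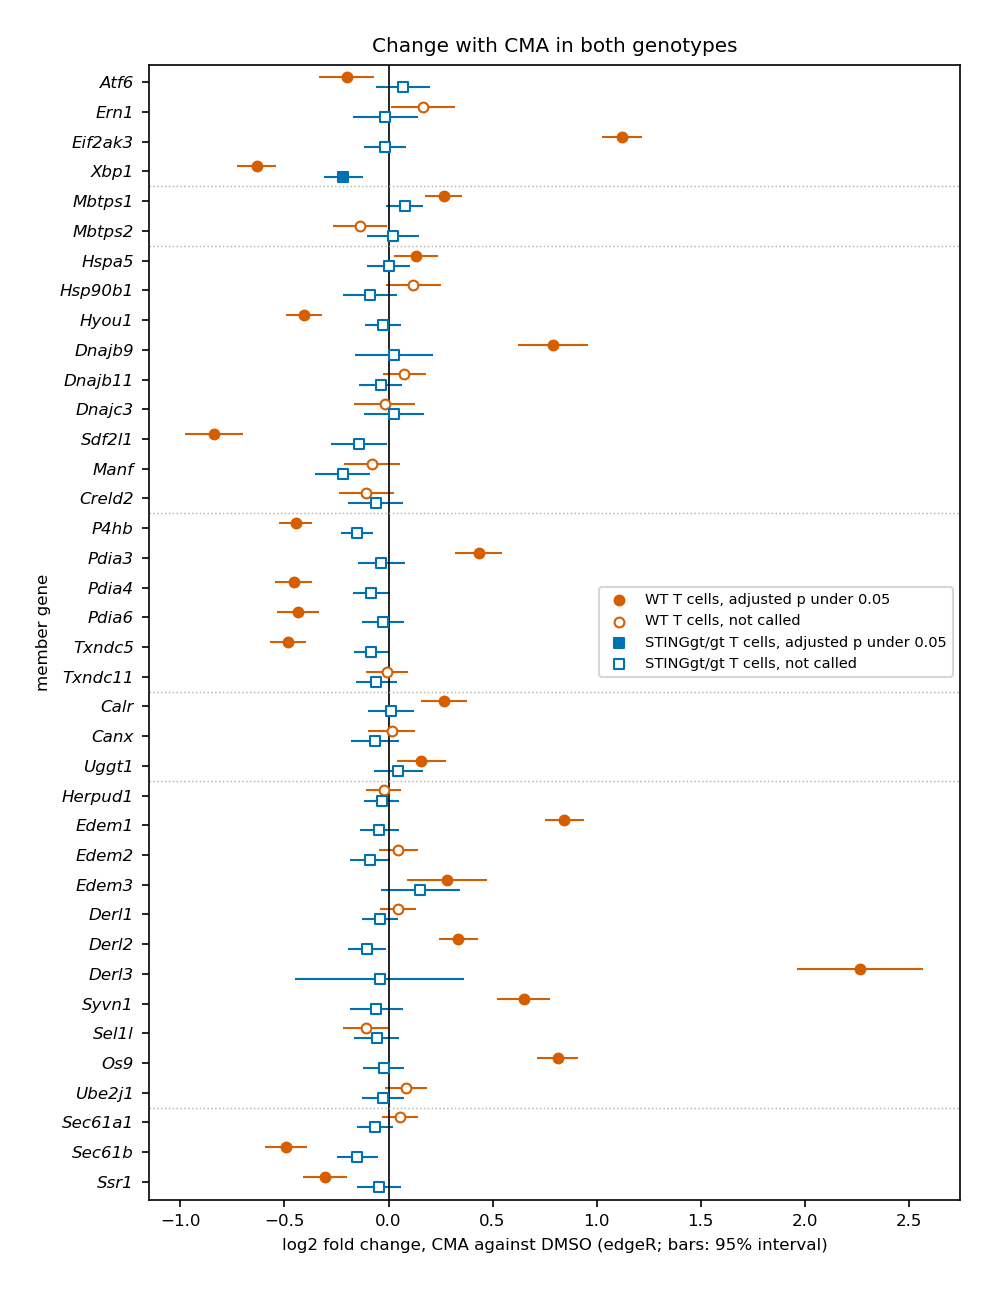
Log2 fold change with CMA against DMSO for each of the 38 genes in WT T cells (orange circles) and in STINGgt/gt T cells (blue squares), with 95% intervals; filled symbols passed an adjusted p of 0.05. In STINGgt/gt T cells the values stay between -0.22 and 0.15 and 1 symbol, Xbp1, is filled, whereas in WT T cells they run from -0.84 (Sdf2l1) to 2.27 (Derl3).

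The last comparison set WT against STINGgt/gt T cells kept in DMSO for the same 16 h, that is without CMA. It uses the WT DMSO libraries again, so that a higher level in WT here and a fall with CMA in WT are not independent results. Both calls were made for Atf6, Xbp1, Hyou1, Sdf2l1, P4hb, Pdia6, Sec61b and Ssr1. WT T cells held more mRNA of most of these genes: 21 were higher, 1 was lower and 16 did not pass edgeR's test, and 32 of the 38 log2 values were positive. Of all genes tested, 22.9% were higher and 19.8% lower in WT T cells, 42.7% in all. The median over the 38 genes was 0.18, beside -0.0018 for all genes, and each difference was below 2-fold, whereas 7.28% of all genes were called with at least 2-fold. The groups did not overlap for 25 of the 38 genes and for 47.9% of all genes. The smallest adjusted p belonged to Eif2ak3, which was higher by a log2 value of 0.53 ± 0.05 (edgeR adjusted p = 1.3e-07), with the CPM values given above. P4hb (ENSMUSG00000025130, chr11:120560298-120573253) was at 1023, 1033 and 1023 CPM in WT and 787, 800 and 786 CPM in STINGgt/gt T cells with DMSO, higher by 0.38 ± 0.04 (edgeR adjusted p = 5.16e-07). With CMA it was at 744, 749.8 and 765 CPM in WT T cells, below the STINGgt/gt libraries with DMSO. Edem2 (ENSMUSG00000038312, chr2:155701677-155729475), which trims the sugars of misfolded proteins, was at 67.4, 73.6 and 67.3 CPM in WT and 53.1, 53.5 and 51.3 CPM in STINGgt/gt T cells (log2 difference 0.40 ± 0.04, edgeR adjusted p = 2.43e-06). It was at 71.7, 72.9 and 70.5 CPM with CMA in WT and 50.7, 49.1 and 48.5 CPM with CMA in STINGgt/gt T cells, so that the genotypes stayed apart under both treatments.

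By role, and beside 22.9% of all genes, 3 of the 4 genes of the group of sensors and Xbp1 were higher in WT T cells with DMSO (Eif2ak3, Atf6 by 0.50 and Xbp1 by 0.25 on the log2 scale), 6 of the 9 chaperones and cofactors (among them Dnajb9 by 0.49 and Creld2 by 0.44), 3 of the 6 isomerases, 1 of the 3 lectin genes (Calr, 0.25), 5 of the 11 degradation genes and all 3 translocon genes. Both site proteases were among the genes that did not pass. The count of degradation genes was 3 without WT DMSO library 1, Uggt1 joined Calr without WT DMSO library 2, and Dnajc3 was lower without WT DMSO library 3. Herpud1 (ENSMUSG00000031770, chr8:94386438-94395377), which recruits the degradation complex, was the 1 gene lower in WT T cells. It was at 94.0, 96.7 and 91.9 CPM in WT and 102, 102 and 101 CPM in STINGgt/gt T cells with DMSO. The groups did not overlap, and the log2 difference of -0.11 ± 0.04 (edgeR adjusted p = 0.0317) lost its call without WT DMSO library 1 or 3 or any 1 of the STINGgt/gt DMSO libraries, with an adjusted p of up to 0.0834. With CMA it was at 90.25, 96.3 and 91.6 CPM in WT and 98.1, 99.97 and 101 CPM in STINGgt/gt T cells. Derl1, higher by 0.11 (edgeR adjusted p = 0.0477), lost its call in 16 of 18 alternatives. Hsp90b1 (0.20, edgeR adjusted p = 0.0155) lost its call without WT DMSO library 3 or STINGgt/gt DMSO library 3. Edem1 (0.14, edgeR adjusted p = 0.0149) lost it without WT DMSO library 1 or STINGgt/gt DMSO library 1 or 3. When only the groups compared were fitted, Hsp90b1, Edem1 and Herpud1 also lost their calls, as did Edem1 and Herpud1 with no filter. Without WT DMSO library 3 the counts were 19 higher and 1 lower, and without WT DMSO library 2 they were 24 and 1.

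Transcripts used as markers of other cell types differed between the same groups, although per the methods CD4+ cells were isolated before culture. Activated T cells can express some of these genes themselves (Prdm1 and Nkg7, for example), and the source of the transcripts was not tested. All 6 B-cell markers were higher in WT T cells with DMSO than in STINGgt/gt T cells. Their summed CPM was 196 to 204 in WT with DMSO, 282 to 302 in WT with CMA, 95.7 to 98.5 in STINGgt/gt with DMSO and 94.3 to 95.4 in STINGgt/gt with CMA. With CMA 4 of the 6 rose further in WT T cells, among them Ms4a1 (25.2 to 28.2 CPM with DMSO and 55.2 to 61.0 CPM with CMA). Plasma cells, whose secretory load makes them rich in ER folding genes, were represented by 5 tested markers. In WT T cells with DMSO 4 of these were higher than in STINGgt/gt T cells (Sdc1, Prdm1, Mzb1 and Jchain), each by at least 2-fold, with a median log2 difference of 1.81 over the 5, and 3 fell with CMA in WT T cells (Sdc1, Prdm1 and Mzb1). With DMSO, Sdc1 was at 9.46 to 11.1 CPM in WT and 2.61 to 3.48 CPM in STINGgt/gt T cells, and Prdm1 was at 10.1 to 14.85 and 1.67 to 2.49 CPM. Mzb1 was at 27.1 to 30.8 CPM in WT with DMSO, 23.8 to 26.5 CPM in WT with CMA and 6.71 to 8.53 CPM in STINGgt/gt T cells. Jchain reached at most 0.658 CPM and 27 reads in any library, and it was not called between genotypes without WT DMSO library 3. Tnfrsf17 had at most 1 read in any library. Irf4, which activated T cells also express, made up most of the summed plasma-cell list (1089 to 1237 CPM in WT with DMSO and 1016 to 1098 CPM in STINGgt/gt with DMSO). Without Irf4 the sum was 48.7 to 55.004 CPM in WT with DMSO, 32.3 to 36.6 CPM in WT with CMA and 12.7 to 13.9 CPM in STINGgt/gt T cells. The sum of the 7 myeloid markers was 57.4 to 64.5 CPM in WT and 41.2 to 44.2 CPM in STINGgt/gt T cells with DMSO, and 70.7 to 74.8 and 38.9 to 44.1 CPM with CMA. All 6 tested myeloid markers were higher in WT than in STINGgt/gt T cells with DMSO. With CMA in WT T cells 1 was higher, Cst3 (36.1 to 40.8 CPM with DMSO, 53.3 to 58.2 CPM with CMA), and Lyz2, Itgam and Fcer1g were lower (Cd68 was also higher without WT DMSO library 2). Without Cst3 the sum was 21.0 to 23.8 CPM in WT with DMSO and 16.6 to 17.4 CPM with CMA. For the 6 CD8 T-cell and NK-cell markers the sum was 121 to 137 CPM in WT and 56.1 to 59.4 CPM in STINGgt/gt with DMSO. With CMA it was 59.1 to 63.9 and 59.6 to 63.2 CPM. Of these markers, 5 were higher in WT T cells with DMSO and 5 fell with CMA in WT T cells. The near-equal sums with CMA hid opposite differences. Nkg7 was at 18.5 to 22.1 CPM in WT and 34.7 to 37.65 CPM in STINGgt/gt with CMA. Ncr1 and Klrb1c were also lower in WT. Cd8a was at 12.2 to 13.8 and 5.25 to 5.67 CPM, and Cd8b1 and Klrd1 were also higher in WT. These differences with CMA were not tested. In bulk libraries fewer cells of a type and less RNA per cell cannot be told apart. The part of these transcripts in the levels of the 38 genes was not tested.

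Further genes of the same pathways were read in the same way, beside 33% of all genes higher and 37.4% lower with CMA in WT T cells. The PERK arm acts through the transcription factors ATF4 and CHOP (Ddit3). Of 13 genes of this arm, 3 (23.1%) were higher and 6 (46.2%) lower after CMA in WT T cells. Atf3 rose by a log2 value of 1.29 and Ppp1r15a (GADD34), the phosphatase subunit that lets translation resume, by 1.28, while Asns, the asparagine synthetase induced by ATF4, fell by 1.75. Ddit3 itself did not pass in WT T cells (0.03, edgeR adjusted p = 0.739) and was lower with CMA in STINGgt/gt T cells by 0.33 (edgeR adjusted p = 0.0214), as was Ddit4 by 0.28. The call of Ddit3 was lost without any 1 of the 6 STINGgt/gt libraries, and that of Ddit4 without any but CMA library 1. Among 23 tested genes of translocation, signal peptidase and glycosylation, 4 (17.4%) were higher and 11 (47.8%) lower (2 and 8 without WT CMA library 2). With library-size scaling 2 were higher and 11 lower, and with only the groups compared 5 were higher and 7 lower. The signal peptidase subunit Spcs3 fell by 0.98 and the oligosaccharyltransferase subunit Rpn1 by 0.58, whereas Rpn2 of the same enzyme rose by 0.41. Among 25 further chaperones and oxidoreductases, 6 (24%) were higher and 9 (36%) lower. Ero1l, the oxidase that recharges the disulfide isomerases, fell by 1.03 in WT T cells and by 0.40 in STINGgt/gt T cells (edgeR adjusted p = 0.00145). The glucosidase Mogs fell by 0.71 and Fkbp11, a prolyl isomerase of secretory cells, by 2.20 in WT T cells. Of 20 further degradation genes, 9 (45%) were higher and 5 (25%) lower in WT T cells, with Herpud2 (0.67) and the mannosidase Man1b1 (0.56) higher and Ngly1, which strips sugars from extracted proteins, lower (-0.58 in WT T cells). Ngly1 was also lower with CMA in STINGgt/gt T cells. That call was lost without any 1 of the STINGgt/gt libraries, any 1 of the WT CMA libraries or WT DMSO library 1. Of 13 tested ER membrane stress factors, 6 (46.2%) were higher and 4 (30.8%) lower, with Tmbim6 (BAX inhibitor-1) higher by 0.67, Atf6b, the paralogue of Atf6, lower by 0.50 and Creb3l1 lower by 1.34. The medians of these 5 lists in WT T cells were -0.06, -0.11, -0.05, 0.12 and 0.15 in the order given, beside -0.04 for all genes. Between the genotypes with DMSO, where 22.9% of all genes were higher and 19.8% lower in WT, the PERK arm had 2 of 13 genes higher and 5 lower. Of the 23 translocation and glycosylation genes 11 were higher and the other 12 did not pass, and of the 25 chaperones and oxidoreductases 11 were higher and 3 lower. The 20 further degradation genes had 5 higher and 15 that did not pass, and the 13 ER membrane stress factors 5 higher and 1 lower. Single libraries moved these counts. The translocation genes had 6 higher without STINGgt/gt DMSO library 3 and 7 without STINGgt/gt DMSO library 2, and 1 was lower without WT DMSO library 2 or 3. The PERK arm had 2 lower without STINGgt/gt DMSO library 1 and 3 lower without WT DMSO library 1. The chaperones had 1 lower without STINGgt/gt DMSO library 1 or 2, and the stress factors 3 higher without either of these or WT DMSO library 2. Of the further degradation genes 2 were lower without WT DMSO library 3, and 1 was lower without WT DMSO library 2, STINGgt/gt DMSO library 2 or STINGgt/gt CMA library 1 or 2. Library-size and upper-quartile scaling and limma also gave 2 lower, and DESeq2 gave 1.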

How the data were processed

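Per the labels, RNA sequencing libraries of CD4+ T cells from WT and STING KO (STINGgt/gt) mice were made with a stranded mRNA kit after 16 h (overnight in the methods) with DMSO or 125 µg/ml CMA. Raw read counts for each Ensembl gene and a log2 expression table of 11921 genes (GRCm38) were deposited by the authors. The submitters' processing notes name cutadapt 1.3, STAR 2.4.0f1, HTSeq 0.6.1 and RSEM 1.2.16. The strand setting is not given in the sources used here, and 17 of the 38 genes overlap another annotated gene (GENCODE M21), with which reads may be shared or dropped. Alignments that were not unique, 27.8% to 30.3% of entries, name no gene and stayed out of library sizes and tests.

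The counts were scaled by TMM, filtered with filterByExpr by group (13811 genes) and tested with edgeR 4.0.16 (glmQLFit and glmQLFTest, R 4.3.3) in 1 model of 4 groups without a block. The threshold was a Benjamini-Hochberg adjusted p of 0.05 over all genes tested. SE and 95% intervals come from the F statistic. With 3 libraries per group, precision is limited by their number. CPM per kb used the exon length of GENCODE M21. Promoters were read from the RefSeq table (GRCm38.p6), and the CCAAT box and the interferon element were added to the motifs after the other results were known. Figures were drawn with matplotlib 3.10.9.

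The genes and lists were named by function, but with earlier results of these data known, so that their choice is not independent of them. Values in every library are given for Atf6, Ern1, Eif2ak3, Xbp1 and Hspa5, for the 5 most positive and the 5 most negative log2 fold changes among genes called in WT (mean count of at least 50), for genes called in STINGgt/gt T cells, and for the 3 with the smallest adjusted p in each direction between genotypes. At most 3 genes with the smallest adjusted p in WT T cells are named per further list. Manf, Dnajc3, Ddit3, Ddit4 and the markers named were chosen after their values were seen. The alternatives were library-size and upper-quartile scaling, DESeq2 1.42.0, limma 3.58.1 on the authors' log2 table, no filter, only the groups compared, replicate blocks and leaving out each of the 12 libraries.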

Additional observations from a re-analysis of the deposited data

Results flagged for a closer look

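For 20 of the 38 genes the 2 genotypes differed in the effect of CMA (interaction term of edgeR's model, adjusted p under 0.05; 58.8% of all genes tested). The differences are given as log2 values, WT minus STINGgt/gt, and their causes were not tested. Among genes of sensing, Eif2ak3 differed by 1.14, Mbtps1 by 0.19, Atf6 by -0.27 and Xbp1 by -0.42. Of the chaperones and cofactors, Dnajb9 differed by 0.76, Hyou1 by -0.38 and Sdf2l1 by -0.70. Of the disulfide isomerases, Pdia3 differed by 0.47, P4hb by -0.30, Pdia4 by -0.37, Txndc5 by -0.40 and Pdia6 by -0.41. Calr of the lectin cycle differed by 0.25. All 5 degradation genes among them were positive, with 0.44 for Derl2, 0.71 for Syvn1, 0.84 for Os9, 0.89 for Edem1 and 2.31 for Derl3. The translocon genes Ssr1 and Sec61b differed by -0.26 and -0.34.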

How the results depend on the processing

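All 20 calls of the difference between genotypes held in every alternative, as did 20 of 23 calls for CMA in WT T cells (not Atf6, Hspa5 and Uggt1) and 18 of 22 between genotypes (not Derl1, Edem1, Herpud1 and Hsp90b1). The Xbp1 call in STINGgt/gt T cells did not. Of the genes not called, some passed in an alternative. These were 12 of 18 for the difference, 10 of 15 for CMA in WT T cells, 7 of 16 between genotypes and 2 of 37 for CMA in STINGgt/gt T cells. For CMA in WT T cells Creld2, Derl1, Sec61a1 and Ube2j1 were among them. For STINGgt/gt T cells the number of genes lower with CMA was 1, 3 with DESeq2, 3 with only the groups compared, 2 with limma on the log2 table and 2 without a filter. The number of genes with a higher effect in WT was 10, and 17 with limma on the log2 table. The 1 gene lower in WT with DMSO became 0 when only the groups compared were fitted and 0 when no filter was set. Leaving out each library gave 11 to 18 higher and 9 to 12 lower for CMA in WT T cells, 0 to 3 lower in STINGgt/gt T cells, 10 to 18 higher and 10 to 11 lower for the difference, and 19 to 24 higher and 0 to 1 lower between genotypes. Counts of 3 lower in STINGgt/gt T cells came without WT DMSO library 2 or 3. Without WT DMSO library 3, Dnajc3 turned to 0.11 for CMA in WT T cells and to -0.12 between genotypes (leave-one-out ranges -0.10 to 0.11 and -0.12 to 0.074). The causes were not tested. No scaling moved the median of all genes by more than 0.1 (log2). A group that left 2 libraries kept the pooled spread of the model.

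Same-numbered libraries deviated together weakly (correlations of 0.00195 to 0.132 in WT and 0.0585 to 0.0634 in STINGgt/gt T cells), and 4 of the 6 WT and 6 of the 6 STINGgt/gt libraries correlated best with their own number. In 5 of the 6 same-numbered pairs the library names in the labels share their first digit. These are hints of a pairing, but the labels do not say what the number or the digit marks, and the samples were not treated as paired. With the replicate number as a block the counts were 15 higher and 13 lower for CMA in WT T cells, 3 lower in STINGgt/gt T cells, and 11 higher and 10 lower for the difference. Genes at the depth of Derl3 (40 to 73 reads per library outside WT with CMA) carry the widest intervals.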
